A study of Penicillium oxalicum with 6 samples.

Results

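The genes described here are 83 of the 8909 genes listed for the filamentous fungus Penicillium oxalicum whose ribosome footprints were almost gone in a strain without PoxTMA7. A gene was taken when its mean level in the wild type was at least 20 FPKM (fragments per kilobase of gene per 1e6 fragments, as the column is named) and its mean in the knockout was at most 1/16 of that, which is 6.25%. Both thresholds were passed by 130 genes, and 47 of them were left out because they lie in 7 ranges of consecutive identifiers. The measured difference between the strains therefore chose the 83 members, and their low knockout level is a description and not a finding.

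The strains compared were the wild type (3 libraries) and the PoxTMA7 knockout (3 libraries), which the labels call biological replicates. All mycelia were pre-cultured with 1% glucose for 24 h and then kept on 1% Avicel, a microcrystalline cellulose, for another 24 h. The labels do not say how the knockout was made or from how many clones the knockout libraries came. The genotype field gives PoxTMA7 for knockout replicate 1, PoxTMA8 for replicate 2 and PoxTMA9 for replicate 3, although all 3 titles give PoxTMA7, so the number of genes the rule takes, their summed and median levels, the neighbouring genes and the comparison with the left-out ranges are also given for replicate 1 alone. The other descriptions use all 3 knockout libraries. Which identifier belongs to PoxTMA7 is not known here, because no source used here pairs an identifier with a gene name. It was therefore not set aside, and whether the deleted gene is listed or is among the members was not tested.

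Ribosome profiling reads the short pieces of mRNA that lie inside ribosomes and escape nuclease digestion, so the footprints of a gene depend on how much of its mRNA is present and on how densely ribosomes occupy it. P. oxalicum is known for secreting enzymes that break down plant cell walls, and growth on cellulose is a common way to bring out these genes. TMA7 was named in budding yeast, where it was found associated with the translation machinery. As mRNA was not measured beside the footprints, less mRNA and fewer ribosomes per mRNA cannot be told apart, nor can fewer cells that use a gene and less use per cell. What the members encode is not annotated in the files or in the given RefSeq table, so members are named by identifier only and no sequence is shown.

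Wild-type libraries held 426932 to 835344 footprints recovered from FPKM, and knockout libraries held 1112592 to 1384309. These totals include estimates for genes that could not be read as whole footprints. By them, every knockout library was at least 1.33 times as deep as every wild-type one. For a gene with the median step, 1 footprint was worth 1.26 to 2.46 FPKM in wild-type libraries and 0.71 to 0.88 FPKM in knockout libraries. A low knockout level was thus read at the greater depth. The FPKM of same-numbered wild-type and knockout libraries summed to 2000000 in each of the 3 pairs, to within 0.44, and other pairs missed this sum by 502 to 2674. The values of a pair therefore depend on a common total, and a share of all FPKM is a share of what was assigned to that library within its pair. Over all genes, the correlation of log2(FPKM + 1) was 0.952 to 0.971 for pairs of libraries from 1 strain and 0.867 to 0.876 for pairs from different strains.

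The 83 members made up 1.73% of the 4798 genes with a wild-type mean of at least 20 FPKM, and with the left-out ranges the rule took 2.71% of them. The ratio of knockout to wild type lay above 1/16 and up to 1/8 for 56 of these genes, above 1/8 and up to 1/4 for 96, and above 1/4 and up to 1/2 for 525. For 3682 genes it lay between 1/2 and 2, and 309 were at least 2 times as high in the knockout. The members are therefore one end of a range of changes that has genes on both sides of the limit.

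**Figure D1:**
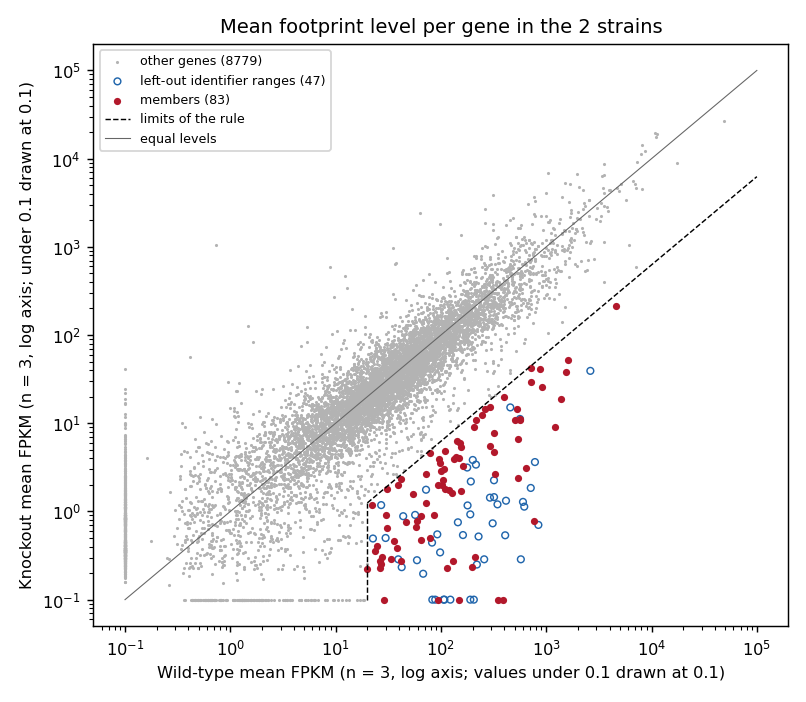
Mean FPKM of each gene in the wild type (horizontal, n = 3, log axis) and in the knockout (vertical, n = 3, log axis), with means under 0.1 drawn at 0.1. The 83 members (filled) and the 47 genes of the left-out identifier ranges (open circles) lie below the dashed limit of 1/16, and other genes lie close to it on the upper side.

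Just inside the limit, POX_7g09444 stood at 5.90% of its wild-type level, POX_5g06653 at 5.88% and POX_7g09849 at 5.88%. POX_7g09444 had 700.3, 707 and 733 FPKM in the wild type against 38.3, 45.9 and 42.1 in the knockout. Just outside, POX_3g04575 stood at 6.46% (344, 329.8 and 298 against 23.9, 20.9 and 18.1 FPKM). POX_5g07658 at 6.47% and POX_3g04582 at 6.51% were the next. These genes differ by little on either side, so the limit divides a continuous series. The member with the lowest wild-type mean was POX_1g00674, with 13.1, 21.4 and 25.6 FPKM against 0, 0 and 0.67.

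Together, the members gave 26318, 26479.6 and 26042 FPKM in wild-type replicates 1, 2 and 3, and 681, 743 and 751 FPKM in knockout replicates 1, 2 and 3. The sums were close to each other within a strain and far apart between strains. Wild-type libraries drew 2.57% ± 0.03 of all their FPKM from the members, and knockout libraries drew 0.0742% ± 0.0039 (SD, n = 3 each). The summed knockout level was 2.76% of the summed wild-type level, a 36.3-fold difference. It was 2.59% in knockout replicate 1 alone, 2.83% in replicate 2 and 2.86% in replicate 3, and the members' median was 1.77% in replicate 1 alone, against 1.93% in all 3. The number of members at or below 1/16 of their wild-type mean was 78, 79 and 78 in replicates 1, 2 and 3. With replicate 1 as the only knockout library, the rule took 92 genes, 78 of them members. Every wild-type value lay above every knockout value in all 83 members. All 83 passed the filter on low values, for which the wild-type libraries alone could be enough, and 83 of 83 were lower by limma's test with an adjusted p under 0.05. Over the 7703 genes tested, 27.8% had every knockout value below every wild-type value and 22.2% were called lower, but the same contrast chose the members, so nothing is read from these counts.

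The rule was also applied with 1 replicate number left out of both strains, and the libraries left out were then read. The 89 genes chosen without replicate 1 had a median knockout level of 2.16% of the wild type in that replicate. The 85 chosen without replicate 2 had 1.97% in replicate 2, and the 89 chosen without replicate 3 had 2.23% in replicate 3. At most 1/16 was reached again by 78, 77 and 77 of them. The remaining 11, 8 and 12 genes stood above 1/16 in the libraries that had not chosen them, at up to 20.8%, 25.2% and 15.8%. Each of these readings sets 1 library against 1, so no test was made.

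Member levels in the wild type ran from 20.02 to 4562 FPKM, with a median of 126.1. At 1000 FPKM or more there were 5 members, 3.29% of the 152 genes at that level. From 100 to 1000 FPKM there were 44 members, 2.95% of 1492 genes, and from 20 to 100 FPKM there were 34, 1.08% of 3154 genes. These shares were not compared by a test, since levels in the same libraries chose the members. The remaining knockout level had a median of 2.47% in the highest band, 2.09% in the middle band and 1.45% in the lowest.

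The most abundant member was POX_1g00267, with wild-type levels of 4562, 4343 and 4780.3 FPKM and knockout levels of 199.4, 227 and 211.5 FPKM. It kept 4.66% of its level and still had 602 footprints in the knockout, so its low level was measured well: pooling the libraries of a strain gave 4.72%, with exact 95% bounds of 4.33% and 5.13% from counting. Intervals of this kind cover counting error only. This gene alone gave 17.4% of the members' summed wild-type FPKM and 29.3% of their summed knockout FPKM.

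POX_8g10355 had 1612, 1816 and 1378 FPKM in the wild type against 49.9, 65.7 and 39.4 in the knockout. POX_8g10509 was close to it in the wild type, at 1492, 1631 and 1505 FPKM, and had 38.2, 35.7 and 40.2 in the knockout. They kept 3.23% and 2.47%, and the counting intervals of the pooled ratios, 2.68% to 3.58% and 1.98% to 3.01%, overlapped. POX_2g03096 had 1211, 1342 and 1626 FPKM against 11.7, 16.7 and 28.15. Replicate 3 was the highest for this gene in both strains, and it kept 1.35%.

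POX_3g04419 had the steadiest wild-type level of all members, at 1207, 1218 and 1229 FPKM, a coefficient of variation (CV) of 0.89%. In the knockout it had 8.70, 8.45 and 10.2 FPKM, which is 0.75% of the wild type. Although its wild-type level was close to that of POX_2g03096, its interval of 0.551% to 1.01% lay below the 1.11% to 1.83% of that gene. The knockout footprints of POX_2g03096 were uneven, at 12, 19 and 36. Without knockout replicate 3 it kept 1.02%, beside 0.70% for POX_3g04419, so their separation leans on that library. POX_4g05320 had 972, 805 and 980.2 FPKM against 23.2, 28.6 and 24.5, and kept 2.77%. POX_3g03841 had 859.7, 936 and 806 FPKM against 37.1, 45.1 and 42.8, and kept 4.81%. The remaining level thus differed several-fold between abundant members, by more than counting error.

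POX_2g03513 was the lowest of the 8 most abundant members in the knockout, with 749.7, 799 and 738 FPKM in the wild type against 0, 0.85 and 1.51 in the knockout. The knockout values are 0, 1 and 2 footprints against 1328 in the wild type. The pooled ratio was 0.110%, with an interval of 0.0226% to 0.321%, and the ratio of means went from 0.10% to 0.056% without knockout replicate 3. The 8 most abundant members together made up 49.0% of the members' summed wild-type FPKM and 54.9% of their summed knockout FPKM.

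**Figure D2:**
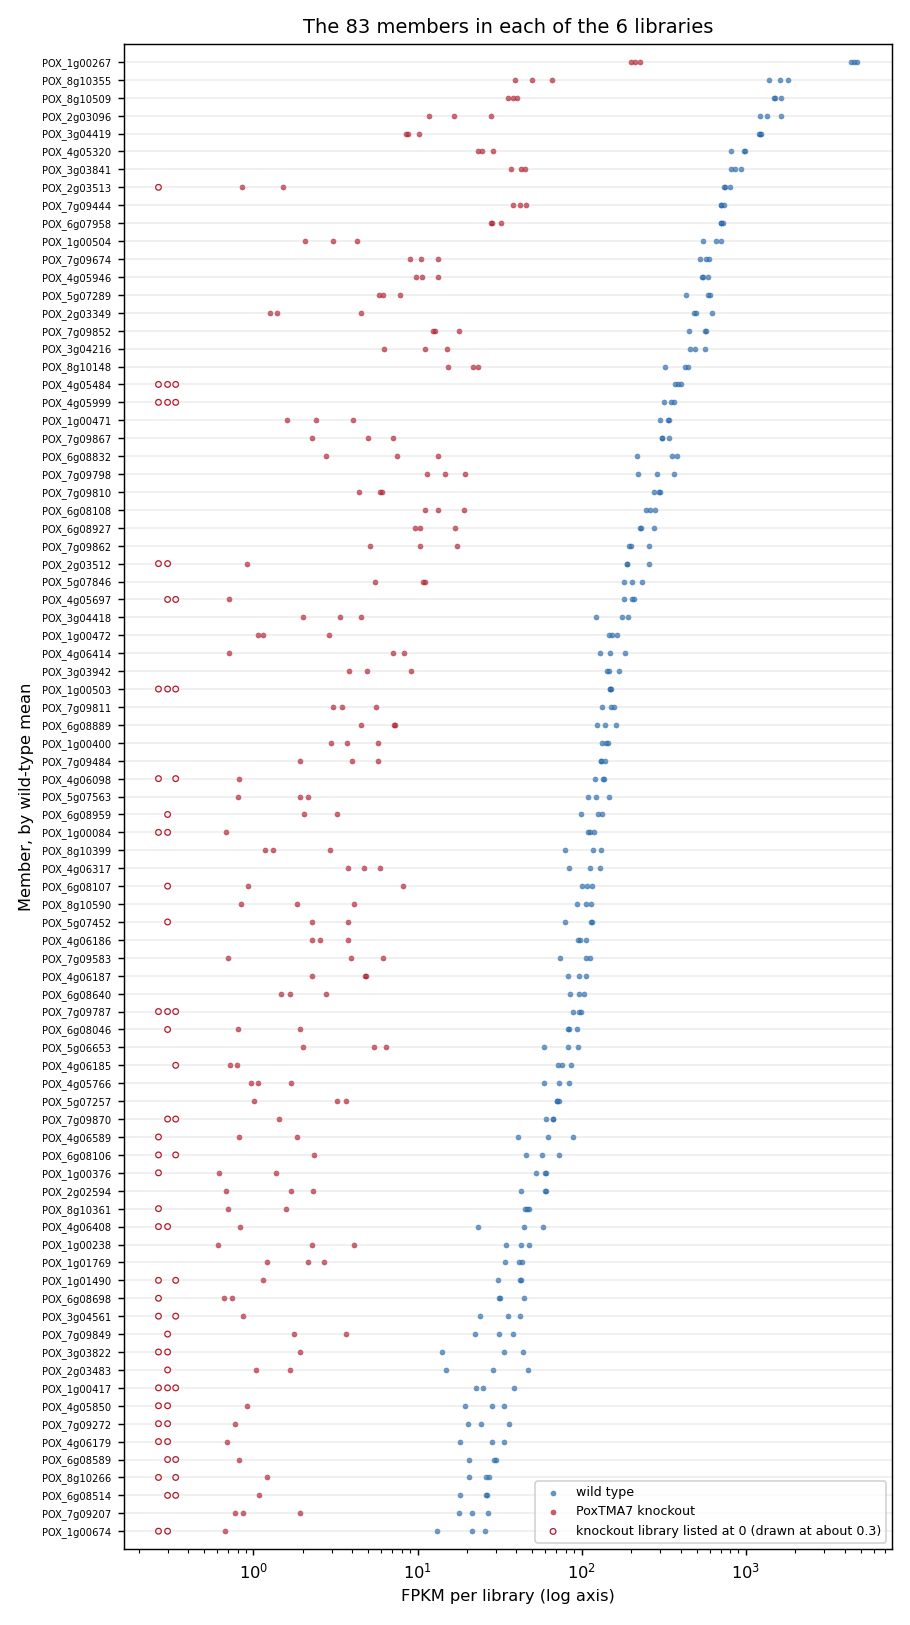
FPKM of each member (rows, ordered by wild-type mean) in the 3 wild-type and 3 knockout libraries, on a log axis, with knockout values of 0 drawn as open circles at about 0.3. Every wild-type point of a member lies to the right of its knockout points, and the 34 members with an open circle all have wild-type means under 1000 FPKM.

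No knockout footprint was seen in any of the 3 libraries for 5 members. Whether the deleted gene PoxTMA7 is among these 5 was not tested. POX_4g05484 had 387.7, 370.7 and 405 FPKM in the wild type, from 683 footprints. POX_4g05999 had 352, 319 and 367 FPKM, from 610 footprints, and POX_1g00503 had 147.6, 149.2 and 151.3 FPKM, from 377 footprints. With a floor of 3 counts over the 3 knockout libraries, they were at least 469-fold, 419-fold and 259-fold lower in the knockout. The two-sided 95% exact interval of the ratio is wider than this floor and reached up to 0.263%, 0.294% and 0.477% of the wild type. The other 2, named here after their values were seen, were POX_7g09787 and POX_1g00417. By the same floor, POX_7g09787 (98.6, 96.2 and 88.5 FPKM) was at least 108-fold lower, and its interval reached up to 1.15%. POX_1g00417 (38.5, 24.9 and 22.7 FPKM) was at least 28.1-fold lower, and its interval reached up to 4.57%. These lower bounds follow the wild-type depth of each gene and do not order the genes. When 1 knockout library was left out, 9, 10 or 13 members were at 0 in the 2 that remained (without replicates 1, 2 and 3), so the number at 0 moves with how many libraries are counted.

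A further 17 members were at 0 in 2 knockout libraries and 12 were at 0 in 1, and the other 49 were above 0 in all 3. Members at 0 numbered 23 in knockout replicate 1, 23 in replicate 2 and 15 in replicate 3, which was the deepest library. In the wild type all 83 were above 0 in all 3 libraries. At least 1 zero was found for 23 of the 34 members under 100 FPKM, for 11 of the 44 from 100 to 1000 and for 0 of the 5 above.

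Footprints were read as whole numbers for 81 members. They summed to 44551 for the wild type against 2488 for the knockout, with a median of 234 and 8 per member over the 3 libraries of a strain. At most 3 knockout footprints were left for 29 members, and 39 members had 10 or more. The counting interval of the ratio lay below 1/16 throughout for 61 members and reached above it for 20. The members had been chosen at this limit from the same libraries, and the intervals cover counting error only. The 61 are therefore not shown to lie below the limit. For the 20, a true level somewhat above the limit cannot be told from one below it at this depth. POX_7g09849 is one of them, at 2.27% to 11.4%, and without knockout replicate 1 its ratio of means was 2.87% in place of 5.88%.

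The remaining level was at most 1% of the wild type for 21 members, above 1% and up to 3% for 39, and above 3% for 23. Its median was 1.93%. Across the 83 members, Spearman's correlation of the wild-type mean with the knockout mean was 0.69, and with the remaining percentage it was 0.10. These values describe the members only, which share libraries and were cut by the limit of 1/16.

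**Figure D3:**
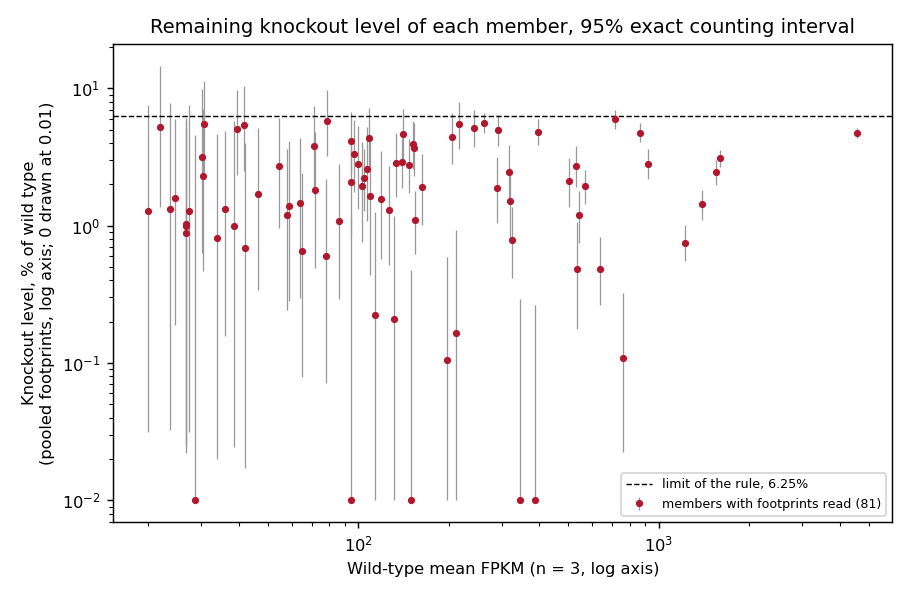
Knockout level as a percentage of the wild type (vertical, pooled footprints, log axis) against the wild-type mean FPKM (horizontal, log axis) for the 81 members with footprints read, with 95% exact counting intervals; values of 0 and interval ends under 0.01% are drawn at 0.01%. Intervals narrow to the right, where POX_1g00267 lies at 4.72%, and members of like wild-type level spread from 0 to the dashed limit of 6.25%.

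The spread of the members between wild-type libraries was close to that of other genes of like level. The median CV over the 3 wild-type libraries was 19.9% for members of 20 to 100 FPKM, beside 19.0% for 3120 other genes. It was 9.39% beside 9.42% for 1448 genes from 100 to 1000 FPKM, and 4.99% beside 5.11% for 147 genes above. A CV over 25% was found for 12 members. The largest were those of POX_2g03483 (47.1, 14.8 and 28.9 FPKM, CV 53.4%), POX_3g03822 (14.04, 43.6 and 33.7 FPKM, CV 49.5%) and POX_4g06408 (58.0, 44.5 and 23.2 FPKM, CV 41.9%). Each of these had its lowest value in a different wild-type library, and each had 1 to 3 footprints in the knockout. Without knockout replicate 3, their remaining level went from 2.97% to 1.72% for POX_2g03483, and from 2.11% and 0.66% to 0 for POX_3g03822 and POX_4g06408. The lowest wild-type value was that of replicate 3, the shallowest library, for 36 members, of replicate 1 for 25 and of replicate 2 for 22. Among other genes with a mean of at least 20 FPKM, replicate 3 was the lowest for 40.6%, replicate 1 for 29.8% and replicate 2 for 29.6%.

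Within the knockout, the spread between libraries could be set beside counting error for the 39 members with 10 to 602 footprints. Their chi-square per degree of freedom was 1.45, and for 5890 other genes in the same range of knockout footprints it was 1.63. Members with fewer footprints are not in this value. In the wild type it was 2.18 for the 81 members read and 1.71 for 4653 other genes of at least 20 FPKM. The knockout values share only a range of footprint numbers, within which members and other genes were not matched. The wild-type values were not matched by footprint number either. No difference is therefore read from either comparison. An example of a member that was uneven in the knockout, picked after its values were seen, is POX_4g06414. It had 7.11, 0.71 and 8.24 FPKM there, from 9, 1 and 13 footprints, and 147.8, 129.9 and 183.3 FPKM in the wild type.

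The members were called scattered because the 7 long ranges of identifiers had been taken out, and most of them stood alone. No other member had the next identifier number for 67 of the 83, and for 57 none lay within 10 numbers. The other 16 formed 7 groups of consecutive numbers, 5 of them pairs and 2 of them triplets, so the label holds for most members and not for all. For scale, members made up 0.93% of all genes listed, and this grouping was not tested. Within 5 numbers of another member there were 21. The distance between genes of consecutive numbers in the genome was not analysed here.

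The group with the highest wild-type level was POX_3g04418 and POX_3g04419. POX_3g04418 had 191.6, 175.8 and 121.6 FPKM in the wild type against 3.35, 4.53 and 2.01 in the knockout, 2.02% of the wild type, beside 0.75% for its neighbour. These were also the only 2 members within 20 numbers of a left-out range, at 17 and 16 numbers from it. In the second group, POX_2g03512 had 188, 187.7 and 256 FPKM against 0, 0 and 0.91, which is 0.14% and close to the 0.10% of POX_2g03513. Its knockout level is 0 without knockout replicate 3. In the third, POX_1g00504 had 659, 703 and 551 FPKM against 3.06, 2.07 and 4.29, or 0.49%, beside POX_1g00503 at 0. In these 3 groups both genes were far below the limit, and in the first the counting interval of POX_3g04418, 1.01% to 3.32%, met that of POX_3g04419 at its lower end.

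The other 4 groups, named after their values were seen, were POX_1g00471 and POX_1g00472 (0.83% and 1.10%), POX_7g09810 and POX_7g09811 (1.89% and 2.72%), and 2 triplets. The triplet POX_6g08106 to POX_6g08108 kept 1.33%, 2.82% and 5.56% in identifier order. The triplet POX_4g06185 to POX_4g06187 kept 0.65%, 2.89% and 4.18%.

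The identifiers directly before or after these 7 groups were listed in 12 cases, and none of the 12 genes was lower by 16-fold or more on the log2(FPKM + 1) scale. Their log2 changes ran from -3.33 to 1.62 with a median of -0.77, and 7 of the 12 were called lower by limma at an adjusted p under 0.05, beside 20.7% of the 7558 tested genes outside the members and the left-out ranges. With knockout replicate 1 alone, 4 of 11 were called lower, beside 13.0% of 7180 genes. The 2 largest falls among them were those of POX_4g06188 (11.4, 19.6 and 8.08 FPKM against 0, 1.30 and 0) and POX_3g04417 (17.4, 10.6 and 20.8 FPKM against 1.65, 0 and 1.33). These kept 3.33% and 6.11% and were no members because their wild-type means, 13.0 and 16.3 FPKM, were under 20.

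**Figure D4:**
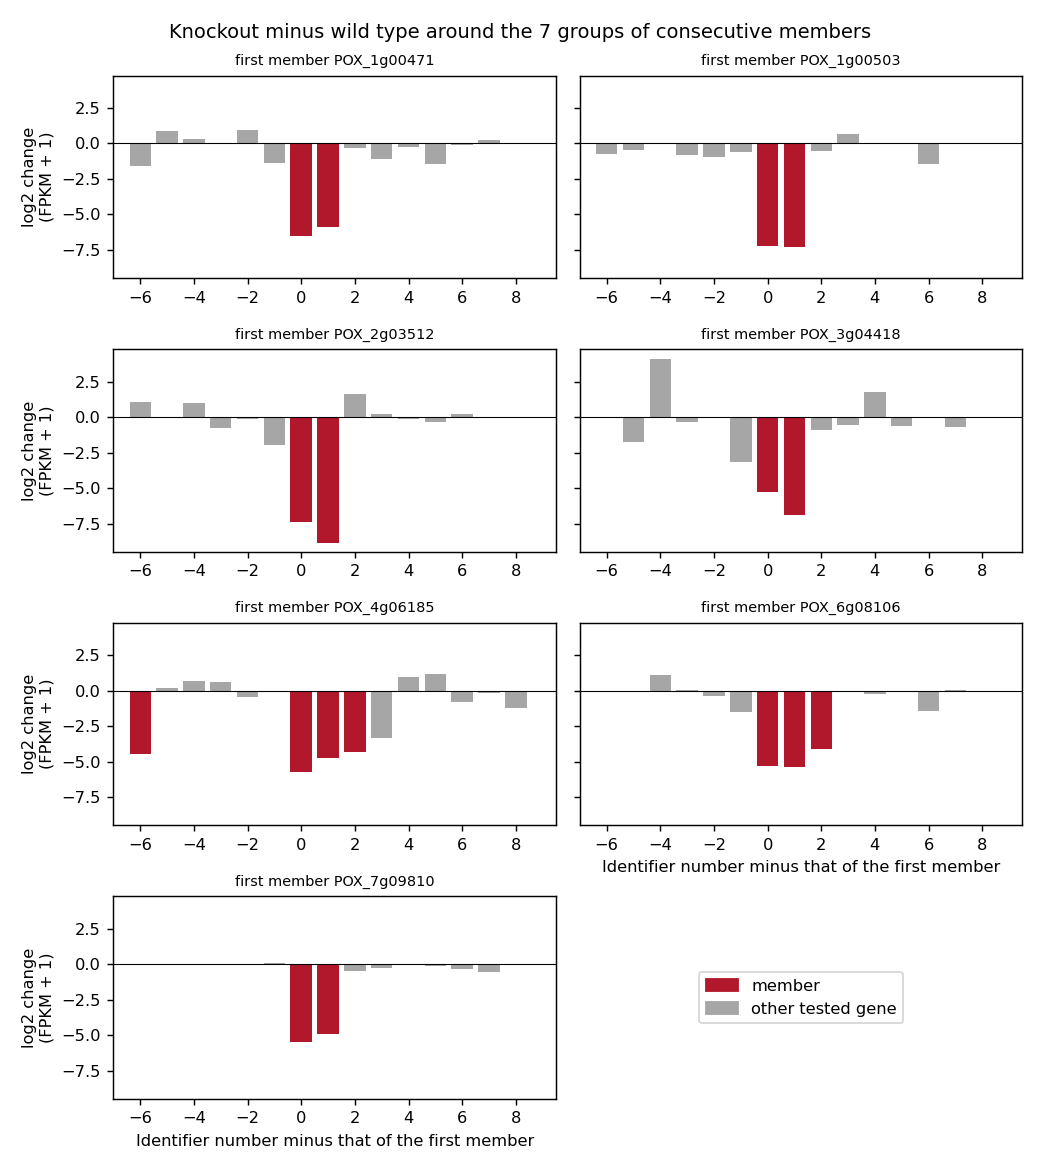
Log2 change of FPKM + 1, knockout minus wild type (vertical), for tested genes up to 6 identifier numbers before and after each of the 7 groups of consecutive members (horizontal, number relative to the first member). Members (dark) drop by more than 4 and the genes directly beside the groups (grey) lie between -3.33 and 1.62; a gap is a number that was not listed or not tested.

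Around all members, 312 other tested genes lay within 3 numbers of a member, and 26.6% of them were called lower and 15.7% higher. Over all 7558 tested genes that were neither members nor in a left-out range, 20.7% were called lower and 17.0% higher. Among the 100 genes directly beside a member, 31 were lower and 14 higher, and within 5 numbers 24.3% of 515 genes were lower. With knockout replicate 1 alone, the share called lower was 20.0% directly beside a member, 15.4% within 3 numbers and 62 of 496 genes within 5, beside 13.0% over all such genes. The share within 5 numbers was thus above that of all genes with 3 knockout libraries and not above it with 1. No test was made of these differences, and a gene near several members was counted once.

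The first digit of the identifiers runs from 1 to 8, apart from 1 gene with 13. Of the genes with a wild-type mean of at least 20 FPKM, members made up 3.59% of 418 with the digit 7, 3.15% of 222 with 8, 2.47% of 648 with 4 and 2.45% of 530 with 6. They made up 1.28% of 1016 with the digit 1, 1.16% of 602 with 3, 0.99% of 607 with 5 and 0.79% of 755 with 2. The counts behind these shares are 15, 7, 16 and 13 members, and 13, 7, 6 and 6. The digits 3 and 5 also held 35 and 9 of the 47 genes of the left-out ranges. None of the sources used here says what the digit stands for.

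Set beside the genes of the left-out ranges, which passed the same thresholds, the members kept more of their level. The median remaining level was 1.93% for the members and 0.46% for the 47 range genes, whose highest was 4.36%. In knockout replicate 1 alone the medians were 1.77% and 0%. The summed level fell from 13980 ± 514 FPKM to 108.5 ± 4.68 FPKM in the range genes (SD, n = 3 each), or 0.78% of the wild type, and from 26279.7 ± 221 to 724.9 ± 37.9 in the members. All 3 knockout libraries were at 0 for 7 of the 47 and for 5 of the 83. The wild-type medians were 190 and 126.1 FPKM. Both sets were chosen from the same contrast, so the difference was not tested.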

How the data were processed

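The authors deposited 1 table per library with a value named FPKM in the file headers, for 8909 identifiers. Per the submitters' processing notes, cutadapt, Bowtie, STAR 2.7 and DESeq2 were used, with no role given. Not given in the sources used here were the genome build, annotation and counter. All identifiers lack a match among the locus tags of the RefSeq table. Per the labels' protocols, fragments of 26 to 34 nucleotides were kept after 1 h of RNase I.

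Sample titles gave the groups. The members, the tests and the gene lists, which could not be used because no product names were at hand, were chosen with earlier results of these data known. FPKM was read as whole footprints times a step per library and a step per gene, which held for 8611 genes (gene step between 0.5 and 4 in units of wild-type library 1). For the other genes, the library totals use an estimate with the median gene step. In a self-test on footprints simulated from the recovered ones and these steps, 97.1% of 7538 genes, and 97.5% of the 81 members, were read back exactly. It tests the read-back only and not whether the deposited values have this form. The gene step spread only 2.58-fold (5th to 95th percentile), and same-numbered libraries shared a total of 2000000, so what the authors divided by is not known. The ratios of knockout to wild type compare FPKM within genes. Ranks, sums, shares and bands of FPKM compare it between genes and carry this limit.

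The background was fitted with limma 3.58.1 (R 4.3.3) with a mean-variance trend on log2(FPKM + 1), which understates changes of low genes, two-sided, with Benjamini-Hochberg adjustment, for genes that reached an FPKM of 1 in 3 or more libraries. It was tested on data simulated with a single size of change, up or down, and the same added spread for every gene. That test does not cover other sizes of change or genes of unequal added spread. Ratios carry no pseudocount, and their intervals are exact binomial ones on pooled footprints. Named members were the 8 highest in the wild type, the 4 with the lowest upper bound of the ratio, the 3 nearest the limit on each side, the 3 with the largest wild-type CV and the 3 highest consecutive groups. Alternatives were the scaling, pseudocount, filter, replicate block, thresholds of the rule, recovered footprints and leaving out libraries.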

Additional observations from a re-analysis of the deposited data

How the results depend on the processing

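The number of members was 79 with median-ratio or upper-quartile scaling, 82 with equal totals, 134 with a limit of 1/8 in place of 1/16, and 60 with 1/32. Knockout replicate 1 alone, chosen after seeing the data, gave 92 genes by the rule, 78 of them members, a summed level of 2.59% and 1643 genes called, with the spread taken from the 3 wild-type libraries alone and the lone knockout library assumed to vary like them. The summed level was 2.95% with median-ratio and 2.999% with upper-quartile scaling. Leaving out 1 library gave 81 to 87 members, 9 to 13 members at 0 in all remaining knockout libraries, a summed level of 2.71% to 2.84%, and 2430 to 2958 genes called against 2996. In the libraries left out, the median level was 1.97% to 2.23%. The replicate block gave 3134 genes called; libraries of the same number had deviations from the strain means with correlations of 0.024, 0.029 and 0.133, and the best partner of only 2 of the 6 libraries bore its number, so numbers were not taken as pairs, although same-numbered libraries share a total FPKM. The members' median log2 change was -4.95, beside -0.05 for all genes tested, and depends on the pseudocount (-5.92 with 0.1, -3.94 with 5). Falls among called genes were 57.0% as deposited and 48.5% with upper-quartile scaling. The cause was not tested in any of these. Of 207 values of the 23 named genes under other scalings or without 1 library, 4 moved by more than 1 SD. The SD is that of the 3 knockout values relative to the wild-type mean. Leaving out 1 of these 3 values cannot move their mean by 1 SD, so for those settings the outcome was fixed in advance. The small number is therefore no sign of stability. This SD is wide for genes with few knockout footprints, and 3 of the 23 are at 0 throughout. By ratio, 6 of the other 20 moved by over 1.5 times when 1 knockout library was left out: POX_7g09849 to 2.87%, POX_2g03483 to 1.72%, POX_2g03513 to 0.056%, and POX_2g03512, POX_3g03822 and POX_4g06408 to 0. Depth limits what can be said of members with few knockout footprints.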

Other observations

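A knockout mean of at least 20 FPKM with a wild-type mean at most 1/16 of it was found for 21 genes, beside 130 in the direction of the members. With knockout replicate 1 alone the numbers were 21 and 139. The 2 numbers were not tested against each other.

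The most members in any 100 consecutive identifier numbers were 9, from POX_7g09787 to POX_7g09870, among 85 listed genes of which 40 had a wild-type mean of at least 20 FPKM. Members made up 1.73% of all 4798 genes with such a mean. These 9 members had wild-type means of 30.7 to 529 FPKM and remaining levels of 0% to 5.88%. Of the 58 other tested genes there, 16 (27.6%) were called lower and 12 higher. Over all 7558 tested genes that were neither members nor in a left-out range, 20.7% were called lower and 17.0% higher. The median log2 change of the 58 was -0.09. The stretch was found by looking for the densest one, so it has no test.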
